A study of Homo sapiens with 4 samples.

Results

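The 10 matrix glycoprotein genes FN1, TNC, THBS1, THBS2, POSTN, SPARC, FBN1, FBLN1, VCAN and SPON2, matched by their symbols, were followed through 4 RNA-seq libraries of engineered prostate cancer tissues. The set was chosen with earlier results of these data known, so its counts and medians beside all genes are descriptive. All 10 of 10 were found among the 17791 genes of the deposited table. Each library stood for 1 group, and every tissue was harvested at day 15 from a hydrogel of fibrinogen coupled to poly(ethylene glycol), with no further treatment. The groups were PC-3 monoculture (labelled CRPC-ne, castration-resistant), LNCaP monoculture (labelled ADPC, androgen-dependent), and each line cocultured with BJ-5ta cells at 5 cancer cells to 1 fibroblast. PC-3 and LNCaP are established human prostate cancer lines, from a bone and a lymph node metastasis. BJ-5ta is a line of telomerase-immortalised normal human foreskin fibroblasts, so the stroma here is 1 line and not prostate stroma. The labels describe a single growth medium, that of PC-3 tissues, and do not give the medium of the LNCaP tissues. RNA came from more than 2 tissues a group, and how it was pooled is not given in the sources used here.

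Fibronectin (FN1) is the large glycoprotein that cells assemble into fibrils through integrins and that binds fibrin and collagen. Tenascin C, the thrombospondins, SPARC and periostin are matricellular proteins: they change how cells attach to the matrix rather than form its scaffold, and carcinoma-associated fibroblasts are known for making them. Fibrillin-1 (FBN1) builds microfibrils, fibulin-1 (FBLN1) binds fibronectin and basement membranes, versican (VCAN) is a large hyaluronan-binding proteoglycan, and spondin 2 (SPON2) is a secreted F-spondin family protein known as a prostate cancer serum marker.

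Levels are given as CPM, counts per 1000000 counts after TMM scaling of library sizes. Total counts were 15520243 to 15865690 a library. There were no replicates, so no difference between groups could be tested. Every interval is a 95% interval for counting error in the libraries compared. A count of 0 allows up to 3 counts, which is 0.188 to 0.193 CPM depending on the library. Whether a level reflects more cells of a type or more RNA per cell cannot be told apart in RNA from whole tissues.

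The cell lines followed their labels in the main markers. The androgen-regulated gene KLK3 was at 0 in either PC-3 library, and LNCaP tissues gave 60226 counts alone and 74134 with fibroblasts. Of 6 LNCaP markers 2, KLK3 and KLK2, were at 0 in either PC-3 library. The summed level of all 6 was 462 CPM in PC-3 cells alone and 413 CPM with fibroblasts. In LNCaP tissues it was 8367 CPM alone and 10218 CPM with fibroblasts. CD44, a hyaluronan receptor, gave 2649 counts in PC-3 cells alone and 1 in LNCaP cells alone. Of 16 fibroblast markers, 7 had 3 counts or fewer in PC-3 cells alone and 12 in LNCaP cells alone, against 0 in either coculture. Their summed level was 254 CPM in PC-3 cells alone and 796 CPM with fibroblasts, and 6.33 CPM in LNCaP cells alone and 1012 CPM with fibroblasts. COL3A1 (697 counts) and MRC2 (974 counts) were among the markers that the PC-3 monoculture already held. The summed marker level was thus higher in each coculture than in its monoculture, and its part in the coculture differences below was not tested. The summed level of 5 PC-3 markers was 644 CPM in PC-3 cells alone, 1.01 CPM in LNCaP cells alone and 82.1 CPM in the LNCaP coculture. Among them CD44, AXL, CAV1 and MET were at least 2-fold higher in the LNCaP coculture than in its monoculture, and the cause was not tested. Some other genes that PC-3 tissues held were at 0 in the LNCaP coculture. They were the fibrillin gene FBN2 (2679 counts in the PC-3 monoculture), the integrin gene ITGB6 (164 counts) and the endothelial marker KDR (2681 counts). These genes were named after their values were seen, and the share of all such genes at 0 was not computed.

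The promoters of 5 members are shown because the data divide these genes. TNC, FBLN1, SPARC and FBN1 were each below 1 CPM in the LNCaP monoculture and above 10 CPM in the other libraries, and FN1 was above 100 CPM in all 4. Each sequence runs 5′ to 3′ on the gene's own strand, from 250 bases before to 50 bases after a RefSeq start on GRCh38.p14. Capitals mark matches, on either strand, to TATAAA (the TATA box), TGANTCA (AP-1), TGACGTCA (cyclic AMP response element), GGAATG (TEAD), GGGCGG (SP1) and GGAGGAGG (a purine-rich box); matches may overlap. TNC lies at chr9:115118108-115118407, minus strand. FBLN1 lies at chr22:45502633-45502932, plus strand. SPARC lies at chr5:151686866-151687165, FBN1 at chr15:48644921-48645220 and FN1 at chr2:215436019-215436318, all on the minus strand. The FBN1 window lies inside the RefSeq gene span, which extends upstream of it to 48645709, so it marks a start other than the outermost one.
TNC: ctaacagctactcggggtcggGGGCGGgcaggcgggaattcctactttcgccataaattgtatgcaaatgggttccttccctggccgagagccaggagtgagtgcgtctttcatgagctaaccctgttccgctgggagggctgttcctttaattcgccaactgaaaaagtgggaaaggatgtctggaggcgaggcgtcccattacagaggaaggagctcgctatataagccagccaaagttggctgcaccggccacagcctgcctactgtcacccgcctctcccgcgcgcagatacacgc
FBLN1: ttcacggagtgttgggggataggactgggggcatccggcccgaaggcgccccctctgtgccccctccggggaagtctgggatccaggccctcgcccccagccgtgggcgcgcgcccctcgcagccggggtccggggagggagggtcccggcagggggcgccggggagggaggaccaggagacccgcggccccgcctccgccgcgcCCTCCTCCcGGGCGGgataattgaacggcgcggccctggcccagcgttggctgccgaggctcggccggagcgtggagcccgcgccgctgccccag
SPARC: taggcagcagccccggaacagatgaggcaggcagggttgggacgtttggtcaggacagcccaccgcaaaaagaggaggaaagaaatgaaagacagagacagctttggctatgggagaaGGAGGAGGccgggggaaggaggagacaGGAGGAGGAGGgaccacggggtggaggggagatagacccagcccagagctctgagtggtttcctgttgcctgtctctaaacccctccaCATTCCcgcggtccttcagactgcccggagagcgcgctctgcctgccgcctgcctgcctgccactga
FBN1: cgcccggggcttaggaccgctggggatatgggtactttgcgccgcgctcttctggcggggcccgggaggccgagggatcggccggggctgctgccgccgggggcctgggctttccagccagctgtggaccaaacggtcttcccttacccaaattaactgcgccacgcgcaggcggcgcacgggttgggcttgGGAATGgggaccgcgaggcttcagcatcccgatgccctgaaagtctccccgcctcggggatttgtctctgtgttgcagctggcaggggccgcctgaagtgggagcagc
FN1: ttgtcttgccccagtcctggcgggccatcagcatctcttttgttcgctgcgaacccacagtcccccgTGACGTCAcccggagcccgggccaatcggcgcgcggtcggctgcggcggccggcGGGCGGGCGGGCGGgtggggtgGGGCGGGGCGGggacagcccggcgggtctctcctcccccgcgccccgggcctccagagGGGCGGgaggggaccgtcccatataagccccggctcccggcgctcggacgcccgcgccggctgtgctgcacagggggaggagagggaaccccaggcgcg

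The promoters of TNC, FBLN1, SPARC and FBN1 had no motif of the 6 in common. The SPARC window held GGAGGAGG at 3 positions, 2 of them overlapping, and GGAATG at 1. FBN1 held GGAATG at 1 position, FBLN1 held GGAGGAGG and GGGCGG at 1 each, and TNC held GGGCGG at 1. FN1 differed from these 4 in holding TGACGTCA, at 183 bases before its start, besides 6 matches to GGGCGG. Among 34943 promoter windows of the same length, 1.84% held TGACGTCA, 10.9% GGAGGAGG, 14.0% GGAATG, 44.9% GGGCGG, 11.6% TATAAA and 7.72% TGANTCA. The windows also ranged in base composition, from 57.3% G and C in TNC to 78.0% in FBLN1, where the median of all windows was 58.7%. A match is a string of letters in the reference, and binding was not measured.

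Without fibroblasts, the 2 cancer lines held transcripts of partly different sets of these glycoproteins. Of the 10 members, 7 reached 1 CPM in PC-3 cells alone and 4 in LNCaP cells alone, with FN1 and THBS1 in both sets. The share of all genes at 1 CPM in each library was not computed, so these counts have no background. Between the monocultures, 22.1% of all genes were at least 2-fold higher in LNCaP and 23.6% lower. Per kilobase of exon, which allows genes to be compared, the PC-3 monoculture was led by SPARC at 55.8 CPM per kilobase, then FN1 at 36.3, THBS1 at 10.2 and FBLN1 at 8.41. The LNCaP monoculture was led by SPON2 at 571 CPM per kilobase and FN1 at 99.0, with THBS1 next at 2.24. SPON2 ranked 59 and FN1 478 among 16635 genes with a known exonic length in the LNCaP monoculture, where SPARC ranked 13325. In the PC-3 monoculture SPARC ranked 1112 and SPON2 13775. THBS1 and FBLN1 changed places in both PC-3 libraries when the longest transcript replaced the exonic length, so their order there is not settled.

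**Figure D1:**
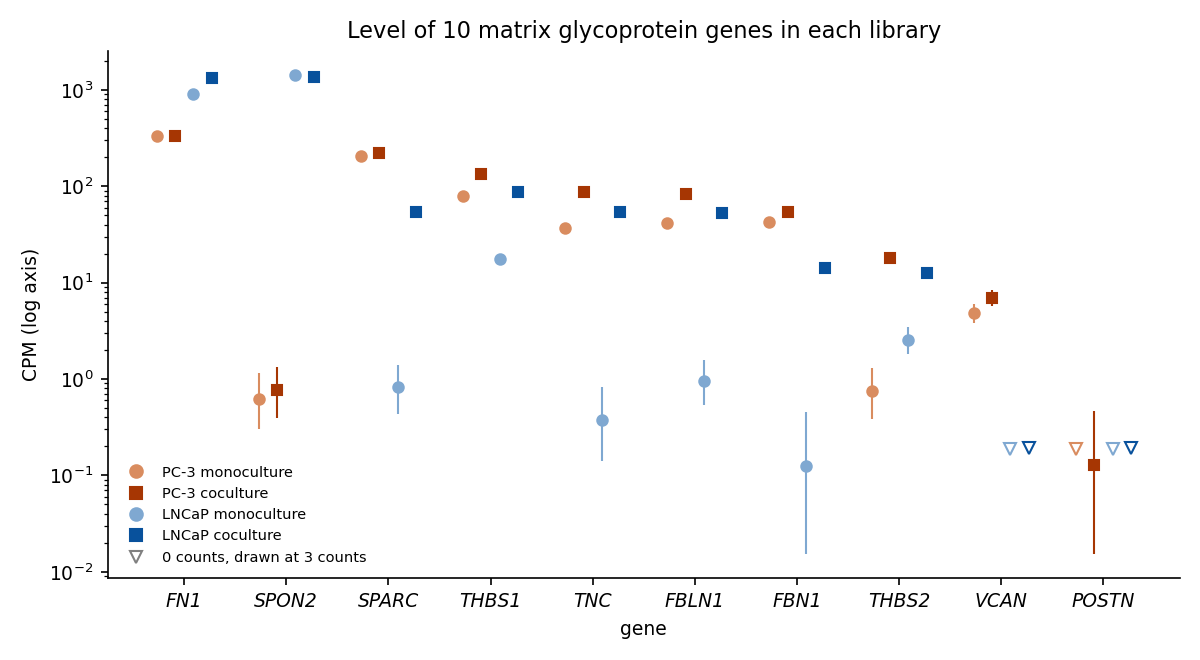
CPM of each gene (log axis) in the 4 libraries, with 95% Poisson intervals for counting error; open triangles stand for 0 counts and are drawn at 3 counts. SPARC, TNC, FBLN1 and FBN1 are below 1 CPM in the LNCaP monoculture and above 10 CPM in the other libraries, while SPON2 is above 1000 CPM in the LNCaP libraries only.

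FN1 (chromosome 2, 215360865 to 215436068) was the member with high counts in every library. PC-3 tissues gave 5276 counts alone and 5189 with fibroblasts, and LNCaP tissues 14219 alone and 20421 with fibroblasts. The PC-3 libraries were alike, at 331 CPM each, and the LNCaP coculture stood above the LNCaP monoculture, at 1316 against 900.5 CPM. The LNCaP coculture held 1.46-fold the level of its monoculture (1.43 to 1.49), and the PC-3 coculture 1.00-fold (0.964 to 1.04). The difference of the log2 folds, LNCaP minus PC-3, was 0.55 (0.48 to 0.61), a small shift with a narrow counting interval. The table sums all FN1 transcripts, so the extra-domain variants of fibronectin, known from remodelled stroma, could not be read apart.

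TNC, tenascin C (chromosome 9, 115019575 to 115118157), gave 589 counts in PC-3 cells alone, 1378 with fibroblasts, 6 in LNCaP cells alone and 841 with fibroblasts. It was low in the LNCaP monoculture alone and higher in each coculture than in its monoculture. The ratio was 2.38 for PC-3 (2.16 to 2.63) and 143 for LNCaP (65.3 to 389.9). FBLN1, fibulin-1 (chromosome 22, 45502883 to 45601135), had 662, 1301, 15 and 817 counts in the same order, which is nearly the same pattern. Its ratios were 2.00 for PC-3 (1.82 to 2.20) and 55.4 for LNCaP (33.4 to 99.5).

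SPARC (chromosome 5, 151661096 to 151686915), a collagen-binding matricellular protein also called osteonectin, gave 3294 counts in PC-3 cells alone, 3470 with fibroblasts, 13 in LNCaP cells alone and 830 with fibroblasts. The PC-3 libraries were close together and the LNCaP coculture lay between them and the LNCaP monoculture. The PC-3 coculture held 1.07-fold its monoculture (1.02 to 1.13) and the LNCaP coculture 65.0-fold (37.8 to 123). FBN1, fibrillin-1 (chromosome 15, 48408313 to 48645709), followed SPARC, with 678, 843, 2 and 222 counts. Its ratios were 1.27 for PC-3 (1.14 to 1.40) and 113 for LNCaP, where 2 counts in the monoculture gave a wide interval (30.9 to 939).

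The thrombospondins THBS1 and THBS2, trimeric relatives that bind CD36, CD47 and latent TGF-beta (the last for thrombospondin 1), differed from each other. THBS1 (chromosome 15, 39581079 to 39599466) gave 1271 counts in PC-3 cells alone, 2075 with fibroblasts, 275 in LNCaP cells alone and 1352 with fibroblasts. It was present throughout and higher in both cocultures, by 1.66-fold for PC-3 (1.55 to 1.78) and 5.01-fold for LNCaP (4.39 to 5.72). THBS2 (chromosome 6, 169215785 to 169253846) had 12, 281, 40 and 197 counts in the same order and was low in both monocultures. Its ratio was 23.9 for PC-3 (13.4 to 46.7) and 5.01 for LNCaP (3.55 to 7.23). THBS2 was the member whose coculture log2 fold was smaller in LNCaP than in PC-3 with an interval clear of 0, by a difference of -2.09 (-3.00 to -1.18).

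VCAN, POSTN and SPON2 did not follow the fibroblast markers. VCAN, versican (chromosome 5, 83471744 to 83582302), gave 77 counts in PC-3 cells alone, 109 with fibroblasts and 0 in either LNCaP library. The PC-3 coculture held 1.44-fold the monoculture (1.07 to 1.96). The LNCaP coculture, with 3577 counts of the collagen gene COL1A2, gave no VCAN count, which allows up to 0.193 CPM. POSTN, periostin (chromosome 13, 37562585 to 37598768), gave 2 counts in PC-3 tissues with fibroblasts and 0 in the other 3 libraries. Those 2 counts lie within the 3 that a count of 0 allows. POSTN was therefore not detectable at this depth in any library, and no fold is given. SPON2 (chromosome 4, 1166932 to 1208844) gave 10 counts in PC-3 cells alone, 12 with fibroblasts, 22378 in LNCaP cells alone and 21101 with fibroblasts. It separated the lines and hardly moved with coculture. The LNCaP ratio was 0.960 (0.942 to 0.978), a difference in level of -56.8 CPM that became -19.8 CPM with DESeq2 size factors. The library kit does not mark strand, and in GENCODE a gene on the opposite strand overlaps SPON2, SPARC, THBS1, THBS2, VCAN and TNC. THBS1 and FBN1 also hold a sense intronic gene. Reads of such partners cannot be told apart from those of the members. Of the partners only FSIP1, which overlaps THBS1, was among the genes counted, at 16 to 28 counts a library against up to 2075 for THBS1.

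**Figure D2:**
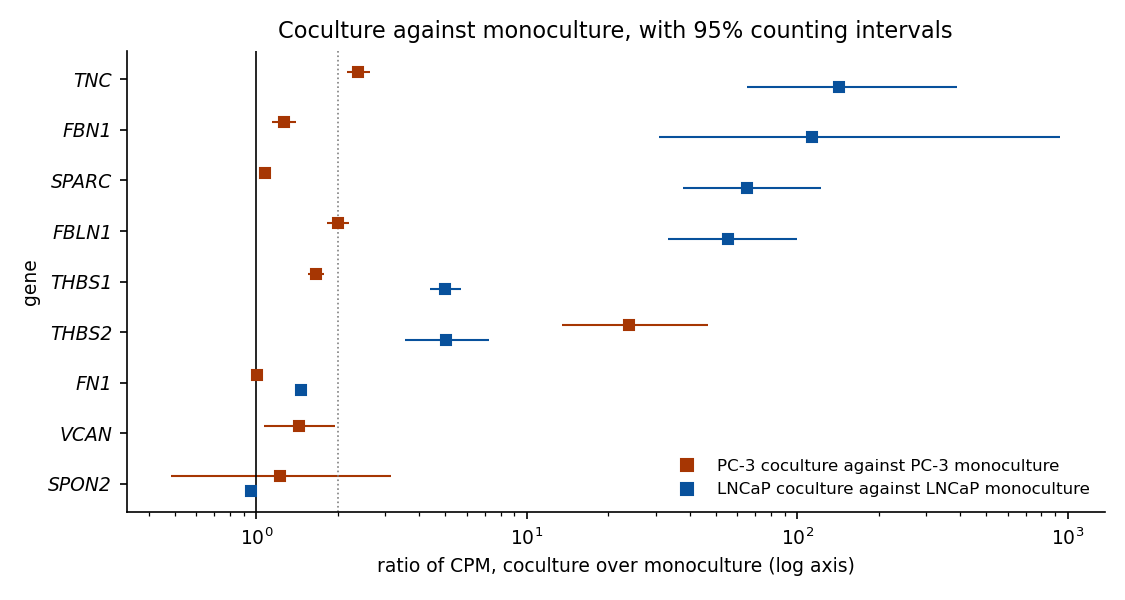
Ratio of CPM in coculture over monoculture (log axis) for 9 genes, with exact 95% counting intervals, for PC-3 (brown) and LNCaP (blue); the dotted line marks 2-fold. POSTN has no ratio and VCAN none for LNCaP; SPARC, FBN1, FBLN1 and TNC lie at 1.07 to 2.38 for PC-3 and at 55.4 to 143 for LNCaP.

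Adding fibroblasts to PC-3 tissues went with differences below 2-fold in most members. A gene was counted when its log2 fold, with a prior count of 2, reached 2-fold and 1 of the 2 libraries held at least 1 CPM. POSTN and SPON2 missed that level, and of the other 8 members 2, TNC and THBS2, were at least 2-fold higher and 0 at least 2-fold lower. Over all genes 2.22% were called higher and 1.01% lower. THBS2, at 0.752 CPM in the PC-3 monoculture, passed the filter through the coculture alone. FBLN1 lay at the limit, with a log2 fold of 0.9992. The log2 folds of the members that reached 1 CPM had a median of 0.62, where all genes had 0.00. Among the 16 fibroblast markers 12 were at least 2-fold higher, with a median log2 fold of 3.89.

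Adding fibroblasts to LNCaP tissues went with larger differences. POSTN and VCAN did not reach 1 CPM in either LNCaP library. Of the other 8 members 6 were at least 2-fold higher, TNC, FBN1, SPARC, FBLN1, THBS1 and THBS2, and 0 at least 2-fold lower. Over all genes 4.56% were called higher and 3.03% lower. The median log2 fold of these 8 was 3.97, against 0.00 over all genes, and all 16 fibroblast markers were at least 2-fold higher with a median of 7.21. TNC, FBN1, SPARC and FBLN1 were below 1 CPM in the LNCaP monoculture and passed the filter through the coculture alone. The filter also left out POSTN and VCAN, so it raised the share of members called and their median. The 8 members other than FN1 and SPON2 summed to 351 counts in the LNCaP monoculture and 4259 in the coculture, and to 6583 and 9459 in the PC-3 libraries.

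**Figure D3:**
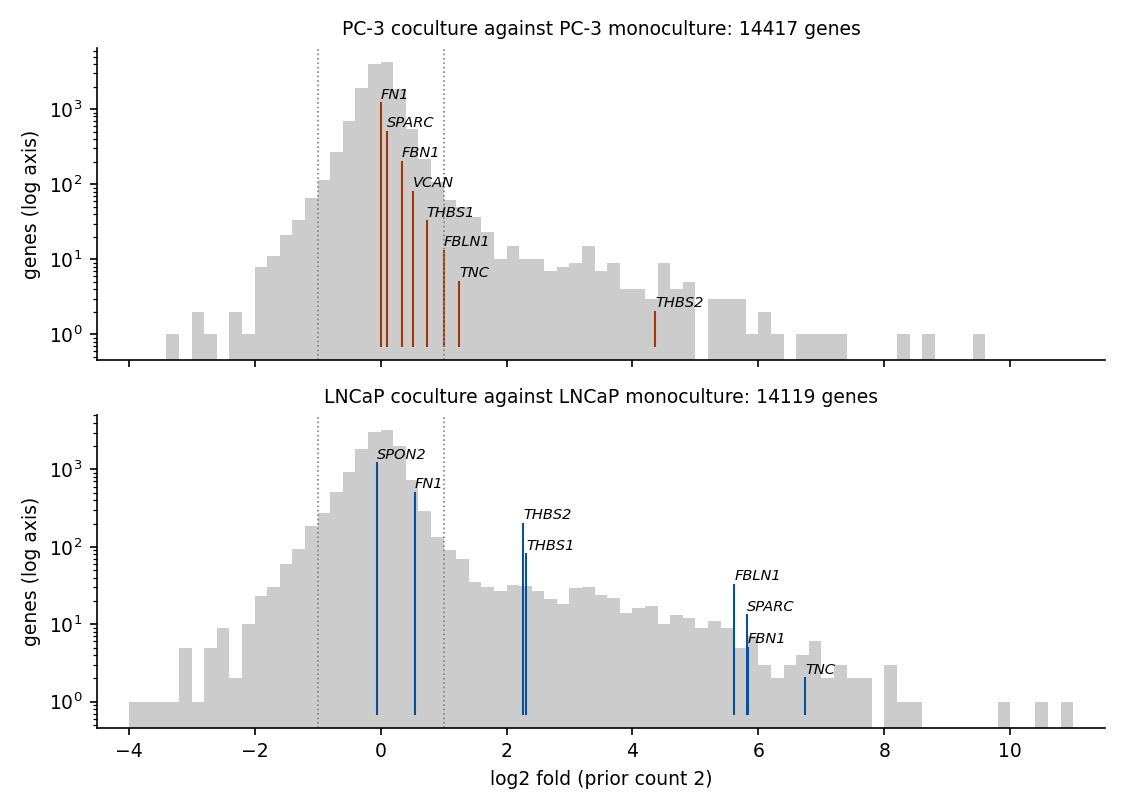
Histogram of log2 folds (prior count 2; gene counts on a log axis) of genes that reached 1 CPM in either library compared, for each coculture against its monoculture; lines mark the glycoprotein genes and dotted lines 2-fold. For PC-3, TNC and THBS2 lie past 2-fold; for LNCaP, TNC, FBN1, SPARC and FBLN1 lie at 5.61 to 6.74.

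Ratios and differences in level gave different pictures of the same genes. For TNC the coculture exceeded its monoculture by 51.0 CPM in PC-3 (45.5 to 56.6) and by 53.8 CPM in LNCaP (50.2 to 57.5), though the ratios were 2.38 and 143. FBN1 gave 11.3 CPM (6.48 to 16.2) and 14.2 CPM (12.3 to 16.1), again within counting error of each other. FBLN1 gave 41.6 CPM (36.0 to 47.1) in PC-3 and 51.7 CPM (48.1 to 55.4) in LNCaP, and THBS1 52.8 CPM (45.6 to 60.0) and 69.7 CPM (64.7 to 74.8). The intervals of FBLN1 and of THBS1 did not overlap, but in all 4 genes this difference varied less between the lines than the monoculture level did, in CPM.

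The intervals of SPARC, THBS2 and FN1 did not overlap between the lines either. SPARC was higher by 15.1 CPM in PC-3 (4.89 to 25.3) and by 52.7 CPM in LNCaP (49.0 to 56.4). THBS2 was the reverse, with 17.2 CPM in PC-3 (15.0 to 19.3) and 10.2 CPM in LNCaP (8.23 to 12.1). FN1 stood furthest apart, with 0.618 CPM in PC-3 (-12.1 to 13.3) and 416 CPM in LNCaP (392.7 to 439). VCAN gave 2.13 CPM in PC-3 (0.439 to 3.83). Fibroblast markers also differed in their ratio between the cocultures: of 6 that had 3 counts or fewer in both monocultures, the LNCaP coculture held 1.05-fold (CD248) to 2.91-fold (MMP2) the level of the PC-3 coculture. THBS2 held 0.708-fold (0.587 to 0.853).

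**Figure D4:**
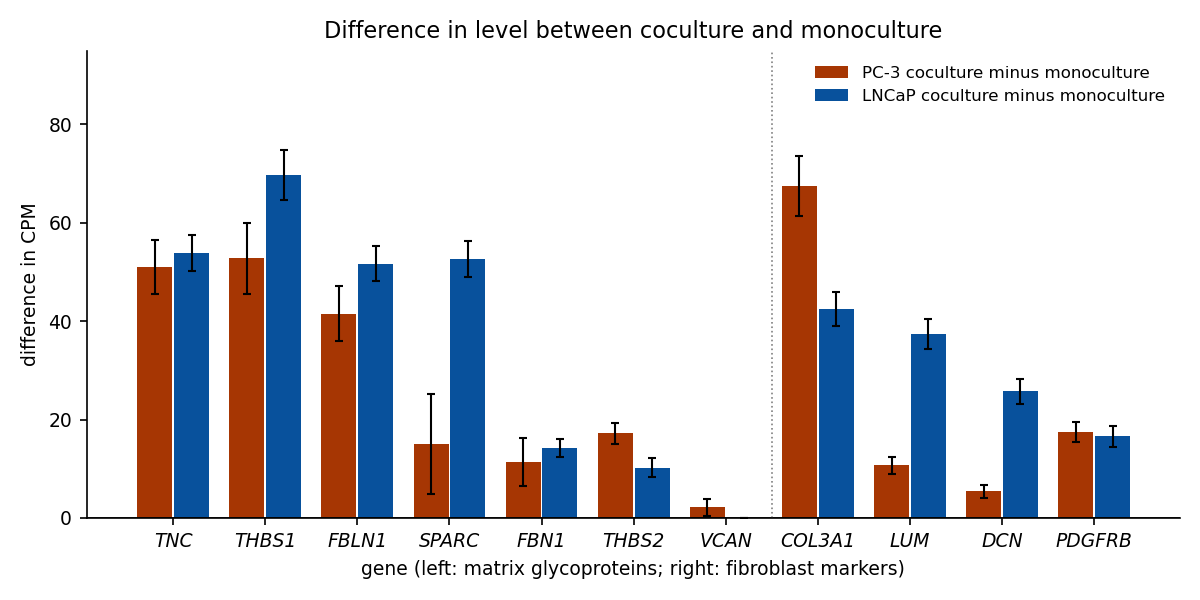
Coculture minus monoculture in CPM for 7 glycoprotein genes and, right of the dotted line, 4 fibroblast markers, in PC-3 (brown) and LNCaP (blue) tissues; error bars are 95% counting intervals, and VCAN has 0 counts in both LNCaP libraries. TNC and FBN1 have overlapping intervals in the 2 lines, SPARC does not.

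Without fibroblasts, the lines differed at least 2-fold in each of the 9 members that reached 1 CPM. LNCaP was higher in 3, FN1, THBS2 and SPON2, and lower in 6, TNC, THBS1, SPARC, FBN1, FBLN1 and VCAN. Differences between the lines were common, with 22.1% of genes called higher and 23.6% lower. FN1 was 2.72-fold higher in LNCaP (2.64 to 2.81) and SPON2 2262-fold higher (1230 to 4718). SPARC was 251-fold lower (146 to 471), FBN1 335-fold lower (92.5 to 2775, from 2 counts), TNC 97.1-fold lower (44.3 to 266) and FBLN1 43.7-fold lower (26.3 to 78.4). THBS1 was 4.57-fold lower (4.01 to 5.23), and VCAN, at 0 in LNCaP, at least 25.4-fold lower.

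With fibroblasts, the lines lay closer together in several members. Of the same 9 members LNCaP was at least 2-fold higher in FN1 and SPON2 and lower in SPARC, FBN1 and VCAN, where 20.7% of all genes were called higher and 23.6% lower. TNC was 1.62-fold lower in the LNCaP coculture (1.49 to 1.77), FBLN1 1.58-fold lower (1.44 to 1.72), THBS1 1.52-fold lower (1.42 to 1.63) and THBS2 1.41-fold lower (1.17 to 1.70). SPARC was still 4.14-fold lower (3.84 to 4.47), FBN1 3.76-fold lower (3.24 to 4.38) and VCAN at least 36.0-fold lower. FN1 went the other way, from 2.72-fold higher without fibroblasts to 3.98-fold higher with them (3.86 to 4.10). SPON2 was 1776-fold higher (1017 to 3438).

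**Figure D5:**
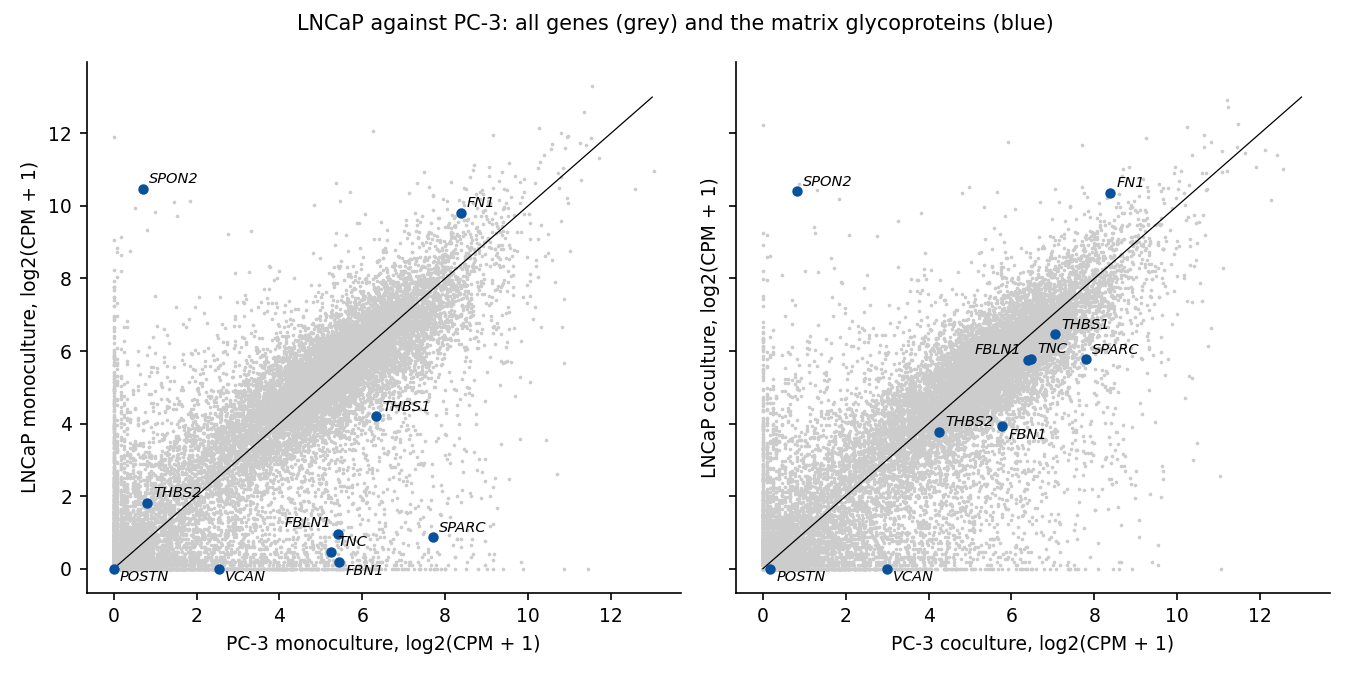
LNCaP against PC-3 in log2(CPM + 1), for monocultures (left) and cocultures (right), with all genes in grey, the 10 members in blue and the line of equal level. TNC, FBLN1 and THBS1 lie far below the line on the left and near it on the right, while SPON2 stays high in LNCaP and VCAN at 0 in LNCaP on both sides.

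Genes that act with these glycoproteins were taken from 7 lists. For these and the following list counts, 2.22% of all genes were called higher and 1.01% lower in the PC-3 pair. In the LNCaP pair the shares were 4.56% and 3.03%. Many genes called higher were below 1 CPM in the monoculture and passed the filter through the coculture alone. In both pairs these were ITGA4, ITGA8, FBLN5, MFAP4 and TGFBI. FBLN2 was another in PC-3, and ITGB3, EFEMP1, MFAP2, HAS2, ADAMTS15, CCN2 and CCN3 were others in LNCaP. The filter thus raised the shares called and the medians of the lists, where all genes had a median log2 fold of 0.00 in each pair. Of 11 fibronectin and tenascin receptors at 1 CPM in the PC-3 pair, 2 were at least 2-fold higher, ITGA4 and ITGA8, and 0 lower; of 9 in the LNCaP pair, 3 were higher, ITGA4, ITGA8 and ITGB3, and 0 lower. ITGA5, the alpha chain of the main fibronectin receptor, had 1420 and 1654 counts in the PC-3 monoculture and coculture and 623 and 889 in LNCaP, a ratio of 1.45 in LNCaP (1.31 to 1.61). ITGB1, its beta chain, was 1.68-fold higher in the LNCaP coculture (1.62 to 1.74). Of elastic fibre and microfibril genes, 4 of 13 were at least 2-fold higher in PC-3 and 8 of 12 in LNCaP, with 0 lower in either, at median log2 folds of 0.57 and 1.49. Among listed genes that reached 5 CPM in either library, those with the highest log2 fold in PC-3 were TGFBI, a fasciclin-domain relative of periostin (141 counts against 1, 144-fold, 25.4 to 5713), and EMILIN1, an elastin microfibril protein (194 against 19, 10.4-fold, 6.48 to 17.7). Of the periostin and spondin relatives TGFBI was the 1 that reached 1 CPM, and in LNCaP it had 148 counts against 2 (75.3-fold, 20.5 to 628). By the same measure the highest in LNCaP were the microfibril gene MFAP4 (229 against 2, 117-fold, 31.9 to 968) and FBLN5, a fibulin (86 against 0, at least 29.2-fold).

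Relatives of the members did not always share their pattern. FBN2, the other main fibrillin, had 2679 and 2869 counts in the PC-3 libraries and 0 in both LNCaP libraries, so unlike FBN1 it gave no count with fibroblasts in LNCaP. Of the SPARC relatives, 1 of the 4 at 1 CPM in the PC-3 pair was at least 2-fold lower, SPOCK2 (12 against 28 counts), and 2 of the 4 at 1 CPM in the LNCaP pair, a set that differs in 1 gene, were higher, FSTL1 and SPOCK1. FSTL1, a secreted SPARC relative, had 5613 and 4918 counts in PC-3 and 141 and 636 in LNCaP. Of versican relatives, partners and proteases, 0 of 8 passed 2-fold in PC-3 and 2 of 4 were higher in LNCaP, the hyaluronan synthase gene HAS2 (18 counts against 0) and the protease gene ADAMTS15 (26 against 8). ADAMTS1, a protease that cleaves versican, had 24984 and 22881 counts in the LNCaP libraries, where VCAN was at 0, against 638 and 479 in PC-3. Of CCN and other matricellular genes, 0 of 5 passed 2-fold in PC-3, and CCN2 (28 against 6 counts) and CCN3 (26 against 6) of 3 in LNCaP. Of 3 tenascin and thrombospondin relatives and receptors in PC-3 and 4 in LNCaP, the receptor gene CD47 among them, 0 passed 2-fold in either direction. Among listed genes that reached 5 CPM in either library, the lowest log2 folds were those of SPOCK3 (1.38-fold lower, 1.12 to 1.70) and the syndecan gene SDC2 (1.31-fold lower, 1.20 to 1.44) in PC-3, and THBS3, a thrombospondin (1.52-fold lower, 1.30 to 1.79), and the latent TGF-beta binding gene LTBP4 (1.19-fold lower, 1.10 to 1.28) in LNCaP.

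The likeness of the patterns was measured as the distance between log2(CPM + 1) profiles centred on each gene's mean, over the 4 libraries and among 12156 genes with a mean of at least 5 CPM. The gene nearest to TNC was another member, FBLN1, at a distance of 0.46, followed by ANPEP, a membrane aminopeptidase (0.75), and GJA1, connexin 43 (0.87). For FBN1 the nearest were LOXL2, a lysyl oxidase relative that crosslinks collagen (0.16), NBL1, a BMP antagonist (0.19), and IFI16, a DNA sensor (0.28). For SPARC they were NT5E, an ectonucleotidase (0.34), MMP14, a membrane-bound metalloproteinase (0.39), and TMEM158 (0.41). SPARC and FBN1 were 1.20 apart, and TNC lay at 1.51 from FBN1 and 1.90 from SPARC, all further than the 3 nearest genes given for each. FN1 lay at 2.99 from THBS2, the nearest member, and at 5.65 from TNC. Such distances were not particular to FN1, since THBS2 lay at 4.14 from TNC and 5.66 from SPARC, and SPON2 at 14.5 from SPARC. FN1 was nearest to CBWD1 (0.09), ADAMTSL4 (0.09) and RHPN2 (0.10). CBWD1 has near-identical copies, so its counts are uncertain. With 4 libraries these distances describe the profiles and carry no test.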

How the data were processed

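RNA of 4 libraries was prepared with RNeasy and TruSeq v2 kits, per the labels' protocols. The authors deposited 1 table of estimated counts, with 1 row a gene symbol and without scaling to a common total. The submitters' processing notes list FastQC, STAR and Partek with the build hg38, and the annotation used for counting is not given in the sources used here. Estimated counts were rounded to whole numbers. Library sizes were scaled with TMM (edgeR 4.0.16, R 4.3.3; factors 0.996 to 1.006), and log2 folds used a prior count of 2. Ratios have exact conditional binomial intervals, levels Poisson intervals, and differences delta method intervals with 2 counts added for log2 folds. Reads carry no molecular identifiers, so intervals cover counting error only. Exonic lengths are unions of GENCODE v29 basic exons (GRCh38), known for 93.5% of genes; the planned RefSeq lengths were spans only. Positions and promoters are RefSeq on GRCh38.p14, counted from 1. The scripts were tested on simulated data. Alternative size factors came from DESeq2 1.42.0, and intervals from scipy 1.17.1 under Python 3.11.15.

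The members and lists were chosen with earlier results of these data known. Named genes were the 10 members, marker checks, the 2 highest and 2 lowest listed genes at 5 CPM or more per coculture comparison, and the 3 genes nearest in pattern to FN1, TNC, SPARC and FBN1; other listed genes were named after their values were seen. POSTN and VCAN have 3 counts or fewer in some pairs and got no fold there. Of the endothelial and blood markers checked, VWF and CD68 were at least 2-fold higher in the LNCaP coculture and 0 of 3 in the PC-3 coculture. Of the LNCaP markers, 0 of 6 passed 2-fold in the LNCaP coculture and 0 of the 4 that reached 1 CPM in the PC-3 coculture. Of the PC-3 markers CD44, AXL, CAV1 and MET were at least 2-fold higher in the LNCaP coculture.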

Additional observations from a re-analysis of the deposited data

How the results depend on the processing

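Alternatives were scaling by total counts or by DESeq2 size factors, a prior count of 0.5, no low-count filter or one of 5 CPM, subtraction of the median log2 fold of genes of like exonic length, and a 1.5-fold limit. The number of members past 2-fold stayed within 1.5 times in each comparison under every alternative but the last. At 1.5-fold, 4 members were higher in the PC-3 coculture, and 6 were lower in the LNCaP coculture against the PC-3 coculture. The share of all genes past 1.5-fold was not computed, so these counts have no background and are not read further. Of 139 recomputed log2 folds of members, 133 stayed within counting error and 6 of FN1 and SPON2 left it; all 24 differences between the coculture log2 folds stayed within it. The log2 fold of FN1 in the PC-3 coculture, 0.0027 as reported, was below 0 under 3 of the alternatives. It was -0.0077 with total counts, -6.0e-05 with DESeq2 size factors and -0.06 after the length correction, so no direction can be given for it. No other log2 fold of a member changed sign. The numbers of genes past 2-fold moved with the low-count filter. Without one, 906 were higher and 440 lower in the PC-3 coculture and 1286 and 753 in the LNCaP coculture; at 5 CPM they were 87 and 21, and 240.0 and 154. Excess levels under other scalings and the order by longest transcript were added after the data were seen. SPON2 in the LNCaP coculture left counting error there, as given above. No paired analysis was possible because each group had 1 library. Depth limits POSTN, VCAN in LNCaP, and ratios that rest on few monoculture counts, such as FBN1 in LNCaP.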
